A study of Mus musculus with 4 samples.

Results

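The creatine kinase and adenylate system of muscle was followed through 10 genes in C2C12 cells, an immortalised mouse myoblast line. The genes are Ckm, Ckb, Ckmt1 and Ckmt2 for creatine kinases, Slc6a8 for creatine uptake, Ak1, Ampd1, Ampd3 and Adssl1 for adenine nucleotide turnover, and Mb for myoglobin. The members were all probe sets assigned to exactly 1 of these symbols, which gave 15 probe sets for 10 genes, out of 34945 probe sets for 18193 genes. The cells carried a stably selected plasmid with a short hairpin RNA that was either non-targeting (shControl, 2 arrays) or directed against LSD1 (shLSD1, 2 arrays). All 4 arrays came from cells kept in 25 mM glucose with hygromycin B selection during growth in 10% fetal bovine serum, then moved to 2% horse serum and collected 48 hours after that induction. The Kdm1a gene encodes LSD1, a histone demethylase, and the comparison asks how its depletion alters expression in differentiating myoblasts. The labels do not say how many stable selections or cultures stand behind each group, so selection and knockdown cannot be told apart, and the p-values rest on array-to-array spread that may be purely technical.

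Muscle contraction uses ATP faster than respiration can at once replace it. Creatine kinases move a phosphate between ATP and creatine, the cytosolic M and B subunits near the sites of ATP use and the mitochondrial forms near the sites of ATP production. Adenylate kinase joins ADP molecules into ATP and AMP. AMP deaminase and adenylosuccinate synthetase then run the purine nucleotide cycle, which removes AMP and later rebuilds it, and myoglobin stores and carries oxygen in the fibre. In development, B-type creatine kinase precedes the M type, which rises as myoblasts become myotubes.

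Of the 10 genes, 4 fell in the knockdown, 1 rose, 2 did not pass the test and 3 were too dim to test. The genes that fell were Ckm, Mb, Ckb and Adssl1, and the gene that rose was Ampd3. Over all 10879 genes tested, 15.8% passed the same threshold, 7.09% by falling and 8.75% by rising (limma, Benjamini-Hochberg adjusted p under 0.05). The 7 tested members had a median log2 fold change of -0.28, against 0.0036 for all genes tested, and a median absolute change of 0.57, against 0.15. The members were chosen with earlier results of these data known, so these medians describe the members and test nothing. Each of the 7 was above the signal filter in both groups. In all 7 the signals of the groups did not overlap, which also held for 60.1% of all genes tested.

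The 250 bases before the transcription start of Ckm, Ckb, Mb and Ampd3 are shown because these are the members with the largest changes, the first 3 downward and the last upward. The sequences are from RefSeq on GRCm38.p6, 5′ to 3′ on the strand of the gene. Ckm and Ckb have 1 listed start each, and Mb and Ampd3 have 3, of which the most downstream start without another start in its window is shown. Capitals mark matches to the E-box CANNTG, which binds myogenic bHLH factors, to the TATA motif TATANA, and to the MEF2 site and the CArG box. The motif CCAAT and the GC box GGGCGG were searched too and stay in lower case, and all were searched on both strands.
Ckm (chr7:19410844-19411093, plus strand): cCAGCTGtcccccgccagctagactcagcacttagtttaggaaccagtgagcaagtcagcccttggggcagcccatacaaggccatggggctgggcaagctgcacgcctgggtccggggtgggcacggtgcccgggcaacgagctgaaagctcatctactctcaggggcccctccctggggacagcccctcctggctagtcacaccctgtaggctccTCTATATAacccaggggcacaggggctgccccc
Ckb (chr12:111672339-111672588, minus strand): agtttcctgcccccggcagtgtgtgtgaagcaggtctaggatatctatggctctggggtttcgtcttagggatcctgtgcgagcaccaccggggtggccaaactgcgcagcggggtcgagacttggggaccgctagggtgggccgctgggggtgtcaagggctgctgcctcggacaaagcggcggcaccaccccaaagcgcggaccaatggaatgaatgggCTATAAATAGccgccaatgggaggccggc
Mb (chr15:77022788-77023037, minus strand): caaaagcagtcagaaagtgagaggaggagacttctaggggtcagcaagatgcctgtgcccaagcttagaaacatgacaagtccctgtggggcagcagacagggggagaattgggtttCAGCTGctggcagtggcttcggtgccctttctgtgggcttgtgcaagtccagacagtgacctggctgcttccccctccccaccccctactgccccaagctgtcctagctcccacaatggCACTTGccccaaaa
Ampd3 (chr7:110773386-110773635, plus strand): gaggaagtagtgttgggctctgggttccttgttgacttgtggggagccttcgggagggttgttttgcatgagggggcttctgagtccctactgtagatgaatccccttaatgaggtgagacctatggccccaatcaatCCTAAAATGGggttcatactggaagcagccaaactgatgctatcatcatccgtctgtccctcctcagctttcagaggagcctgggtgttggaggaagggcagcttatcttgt

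The 4 windows share no one motif. In Ckm, the E-box at position -249 has the form CAGCTG, and overlapping TATA matches begin at -33 and -31. In Ckb there is no E-box match, and a MEF2 match at -29 overlaps a TATA match at -28, between CCAAT matches at -46 and -16. In Mb, E-boxes begin at -133, again as CAGCTG, and at -14, with a CCAAT match at -142. The Ampd3 window holds a CCAAT match at -121, a CArG match at -112 and no E-box, while the windows of its other 2 listed starts hold 1 and 3 E-boxes. Over the 32851 promoters of the same length, 66.2% hold an E-box, 13.0% hold CAGCTG, 22.6% a TATA match, 33.8% a CCAAT match, 2.92% a MEF2 match and 1.47% a CArG match. The GC box, held by 32.7% of these promoters, had no match in the 4 windows. A match describes the letters only. Entries were found for 8 of the 10 genes, Slc6a8 and Ampd1 being the others.

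Before the members, the targeted gene was examined. Kdm1a measured 21.3% of control in the knockdown by its brightest probe set (-2.23 on the log2 scale, limma adjusted p = 2.89e-05, SE 0.07). The median signals over 45101 probe sets were 67.3 and 67.9 in the control arrays and 67.7 and 69.7 in the knockdown arrays, shLSD1 replicate 2 being the highest. Every value below is a MAS5 signal in arbitrary units. The 2 arrays per group limit the precision.

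Ckm, the muscle subunit of cytosolic creatine kinase, had the largest fall among the tested members. The control arrays read 5083 (replicate 1) and 4515 (replicate 2), and the knockdown arrays 2995 and 2322. Both knockdown arrays were below both controls, and the knockdown arrays differed from each other more than the controls did. On the log2 scale the difference was -0.86 (limma adjusted p = 2.89e-03, SE 0.12), which leaves 55.1% of control with a 95% confidence interval from 45.7% to 66.3%. It held rank 161 of 10879 among falls. Without the intensity trend in the variance model its call was lost (limma adjusted p = 0.0610, where its alternatives ranged from 4.66e-07 to that value). The lowest value came from the fit with the replicate number as a block. A dimmer Ckm probe set gave 130 and 124 in the controls and 66.8 and 120 in the knockdown, with a log2 fold change of -0.50 (95% confidence interval -1.20 to 0.20, limma adjusted p = 0.341).

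Ckb, the subunit typical of brain and of undifferentiated myoblasts, fell as well. Its signal was 9442 and 9213 in the control arrays, against 6031 and 6585 in the knockdown arrays. Both knockdown arrays were below both controls, and the controls were close together. This is a log2 difference of -0.57 (SE 0.05, limma adjusted p = 8.21e-04), or 67.6% of control (95% confidence interval 61.9% to 73.8%). Its call held in all 14 alternatives, with limma adjusted p from 9.85e-06 (replicate number as a block) to 0.0406 (no intensity trend).

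**Figure D1:**
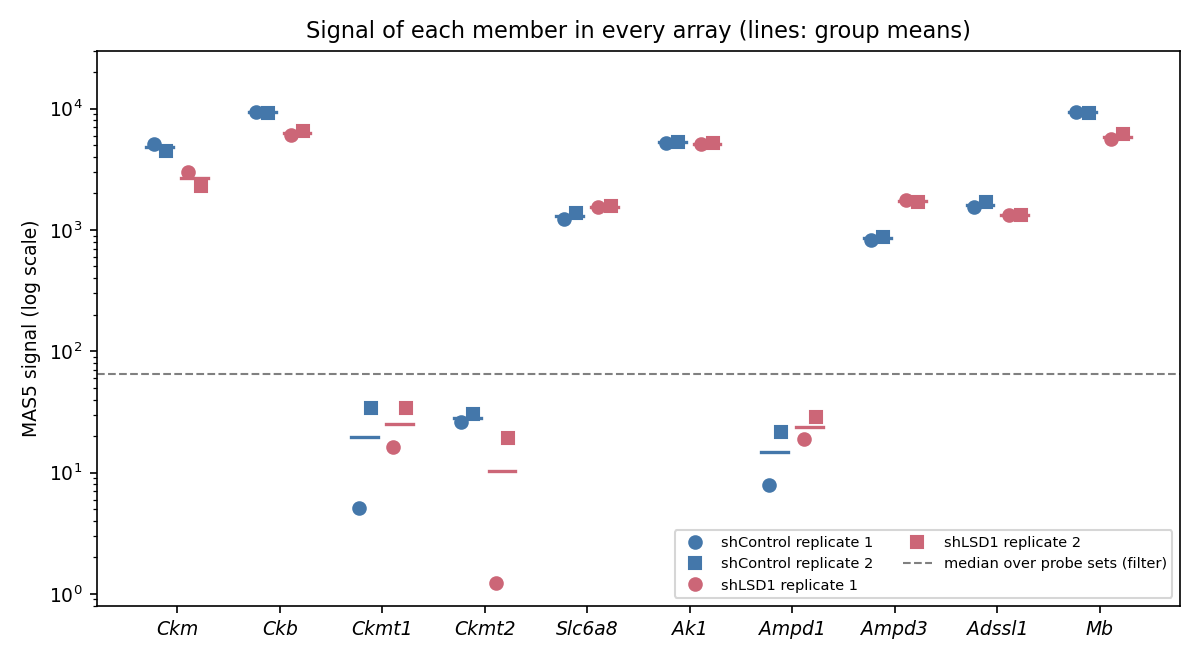
MAS5 signal of the representative probe set of each of the 10 genes (log axis), with circles and squares for replicates 1 and 2, shControl in blue, shLSD1 in red, and short lines at the group means. Ckm, Ckb and Mb sit lower in both shLSD1 arrays, Ampd3 sits higher, and Ckmt1, Ckmt2 and Ampd1 lie under the dashed line at 65.4, the filter for testing.

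The muscle and brain subunits were then compared within each array, so that the scaling of the array drops out. The log2 ratio of Ckm to Ckb signals was -0.89 and -1.03 in the control arrays, and -1.01 and -1.50 in the knockdown arrays. The value of shLSD1 replicate 1 lay between those of the controls, so the groups overlapped. The ratio was lower by a mean of -0.30 on the log2 scale (exact permutation test, two-sided, p = 0.667, adjusted p = 1 over 5 ratios). Without shLSD1 replicate 2 the difference was -0.048, and without shLSD1 replicate 1 it was -0.54. An unequal change of the subunits was not shown, and with 2 arrays against 2 an exact permutation test cannot go below p = 0.33.

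The mitochondrial creatine kinases were not measurable by these probe sets. Ckmt1, the ubiquitous form, gave 5.10 and 34.1 in the controls and 16.2 and 34.2 in the knockdown by the brighter of its 2 probe sets, and 1.44 to 15.3 over the 4 arrays by the other. Ckmt2, the form of striated muscle, gave 26.3 and 30.1 in the controls and 1.23 and 19.4 in the knockdown. These signals are below the filter at 65.4, where MAS5 values are noisy on a log scale. In the fit with no filter the 95% confidence interval of the log2 fold change ran from -1.60 to 3.28 for Ckmt1 (limma adjusted p = 0.724) and from -5.64 to 0.59 for Ckmt2 (limma adjusted p = 0.344). Ratios of Ckmt2 to Ckmt1 and of Ckm to Ckmt2 rest on these signals and are not read here.

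Creatine supply showed no change past the threshold. Slc6a8, the plasma membrane creatine transporter, gave 1229 and 1381 in the controls and 1533 and 1569 in the knockdown. Both knockdown values were above both controls, with a gap between the groups no larger than the gap between the controls. The difference on the log2 scale was 0.25 (SE 0.08, limma adjusted p = 0.0659, 95% confidence interval 0.07 to 0.43). The second Slc6a8 probe set gave 1121 and 1142 in the controls and 1257 and 1134 in the knockdown, a log2 fold change of 0.08 (95% confidence interval -0.11 to 0.26, limma adjusted p = 0.595) with overlapping groups. Gatm and Gamt, which make creatine from arginine and glycine by way of guanidinoacetate, measured 0.18 (SE 0.06, limma adjusted p = 0.0812) and -0.12 (SE 0.08, limma adjusted p = 0.356). With the replicate number as a block, Slc6a8 (limma adjusted p = 0.0328) and Gatm (limma adjusted p = 0.0482) passed. Without shLSD1 replicate 1 Gatm measured 0.25 and Gamt -0.01, and without shLSD1 replicate 2 they measured 0.12 and -0.23.

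**Figure D2:**
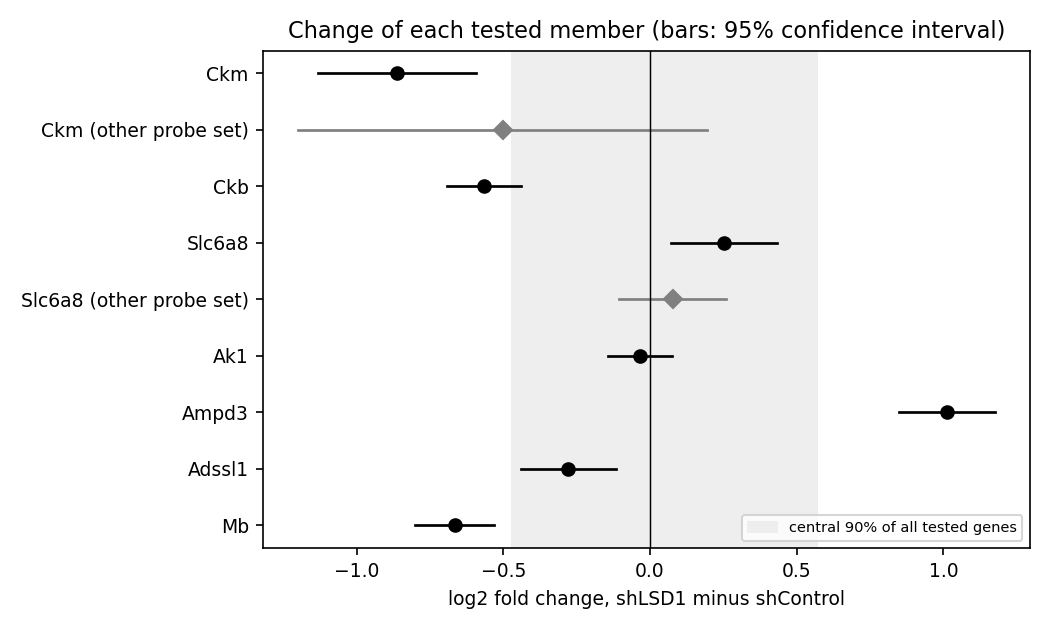
Log2 fold change (shLSD1 minus shControl) of the 7 tested members with 95% confidence intervals from limma, black for the representative probe set and grey for the other probe sets above the filter. The shaded band from -0.47 to 0.57 holds the central 90% of all tested genes: Ckm, Ckb and Mb lie below it and Ampd3 above it.

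Ak1, the main cytosolic adenylate kinase of muscle, did not pass the test, and its confidence interval was narrow. Its signal was 5247 and 5316 in the controls and 5084 and 5226 in the knockdown. The knockdown values were just below the controls, with almost no gap between the groups. The difference of -0.04 on the log2 scale (limma adjusted p = 0.663, SE 0.05) had a 95% confidence interval from -0.14 to 0.07, or 90.5% to 105% of control. A second Ak1 probe set was dim, with 26.8 to 38.7 over the 4 arrays.

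The log2 ratio of Ckm to Ak1 was -0.05 and -0.24 in the controls and -0.76 and -1.17 in the knockdown. Here the groups did not overlap, and the ratio was lower by a mean of -0.83 (exact permutation test, two-sided, p = 0.33, adjusted p = 0.83 over 5 ratios), the smallest p this design allows. Without any 1 array it ranged from -1.03 to -0.62.

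**Figure D3:**
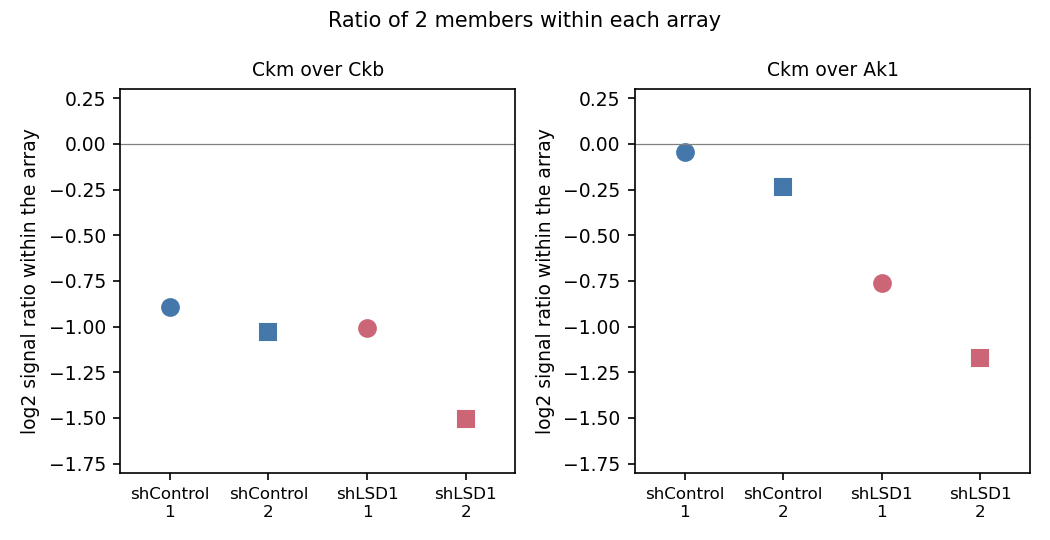
Log2 ratio of the signals of 2 members within each array, with Ckm over Ckb on the left and Ckm over Ak1 on the right, for replicates 1 and 2 of shControl (blue) and shLSD1 (red). The groups overlap for Ckm over Ckb (-1.03 to -0.89 against -1.50 to -1.01) and do not overlap for Ckm over Ak1.

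Ampd3, the AMP deaminase first described in erythrocytes, rose in the knockdown. Its signal was 834 and 875 in the control arrays and 1753 and 1694 in the knockdown arrays. Both groups were tight, and both knockdown arrays were far above both controls. The log2 fold change was 1.01 (SE 0.07, limma adjusted p = 2.24e-04), a 2.02-fold rise with a 95% confidence interval from 1.80 to 2.26, and rank 158 of 10879 among rises. Its call held in all 14 alternatives, where the log2 fold change ranged from 0.98 to 1.05. The limma adjusted p ranged from 7.60e-07 (replicate number as a block) to 0.0178 (no intensity trend). Ampd1, the deaminase of mature muscle fibres, was dim, with 7.84 and 21.5 in the controls and 18.8 and 28.6 in the knockdown. In the fit with no filter its 95% confidence interval ran from -1.02 to 2.69 (limma adjusted p = 0.626), so no ratio of Ampd1 to Ampd3 is read here.

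Adssl1, the muscle form of adenylosuccinate synthetase, fell slightly. It gave 1551 and 1685 in the controls and 1330 and 1337 in the knockdown. The knockdown arrays were lower than both controls, and the controls differed from each other more than the knockdown arrays did. That corresponds to -0.28 on the log2 scale (limma adjusted p = 0.0340, SE 0.07), or 82.5% of control (95% confidence interval 73.7% to 92.3%). This call was lost in 5 of 14 alternatives, in which the limma adjusted p was 0.0934 without shControl replicate 1, 0.234 without shControl replicate 2, 0.0540 with no filter, 0.115 with no intensity trend and 0.0569 when probe sets were averaged. The lowest of all 14 was 0.0178, with the replicate number as a block. Adss, the synthetase form of non-muscle tissues, rose by 0.31 (SE 0.05, limma adjusted p = 6.23e-03), from 3500 and 3389 in the controls to 4257 and 4286. The call of Adss was lost without shControl replicate 1 (limma adjusted p = 0.0593), without shControl replicate 2 (0.0883) and with no intensity trend (0.0750).

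Mb, the oxygen store of muscle fibres, fell in both knockdown arrays. Its bright probe set gave 9394 and 9277 in the controls and 5586 and 6197 in the knockdown. The controls nearly coincided and both knockdown arrays were far below them. The change came to -0.67 on the log2 scale (limma adjusted p = 5.92e-04, SE 0.06), or 63.0% of control (95% confidence interval 57.4% to 69.2%), at rank 283 of 10879 among falls. The second Mb probe set was near background at 6.38 to 10.7 over the 4 arrays, and when both were averaged on the log scale the call was lost (limma adjusted p = 0.101, where the other 13 alternatives kept the call). Among 7 tested genes of the list for other globins and haem synthesis, 1 rose and 0 fell, with a median of -0.02. The gene that rose was Fech, which inserts iron into haem, at 0.23 (SE 0.06, limma adjusted p = 0.0360), which no longer passed when any array but shLSD1 replicate 1 was dropped, with no filter, with no intensity trend or when its probe sets were averaged. Cygb, another globin gene, stayed dim at 4.31 to 36.8.

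The other genes of the energy-buffer pathway changed in both directions, and most did not pass the test. Of 73 genes written in 7 lists, 63 had a probe set, 53 were tested, 5 rose and 3 fell, with a median log2 fold change of -0.0012. Over all genes tested, 8.75% rose and 7.09% fell, and the counts for the 53 genes are close to these shares. The same shares apply beside the counts of each single list, and no list was tested as a set. Without shControl replicate 1 and without shControl replicate 2 there was 1 rise and 1 fall each. For the list of AMP and purine nucleotide genes, 3 of 17 tested rose and 1 fell, with a median of 0.10. Nt5e, the surface enzyme that turns AMP into adenosine, rose from 114 and 113 to 370 and 262, or by 1.46 in log2 units (limma adjusted p = 3.41e-03, SE 0.20). Besides Adss, Pnp, which splits purine nucleosides, rose by 0.43 (limma adjusted p = 6.35e-03), and the guanylate kinase gene Guk1 fell by 0.36 (limma adjusted p = 0.0227), and neither passed when either control array was dropped or when the trend was left out of the variance model. Ampd2, the third AMP deaminase gene, measured 0.37 (SE 0.13, limma adjusted p = 0.0887) and Adsl, which completes the purine nucleotide cycle, 0.28 (SE 0.09, limma adjusted p = 0.0726).

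The AMP-activated kinase senses the AMP that this system controls. Of its 11 tested subunits and upstream partners, 2 fell and 1 rose, with a median of -0.07. Prkag3, the gamma subunit enriched in skeletal muscle, gave 1288 and 1356 in the controls and 834 and 817 in the knockdown, which is -0.68 in log2 units (limma adjusted p = 1.20e-03, SE 0.07). Prkag2, another gamma subunit, rose by 0.88 (SE 0.20, limma adjusted p = 0.0218), from 179 and 183 to 402 and 275. It no longer passed when any array but shLSD1 replicate 2 was dropped, with no trend or when its probe sets were averaged. Cab39, a scaffold of the upstream kinase, fell by 0.34 (limma adjusted p = 8.11e-03), which did not pass when either control array was dropped or with no trend. The catalytic subunits Prkaa1 and Prkaa2 measured 0.16 (limma adjusted p = 0.329) and -0.11 (limma adjusted p = 0.738).

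No gene of the 4 remaining lists passed the threshold. These comprised 2 tested genes for creatine synthesis, 3 for other adenylate kinases, 6 for nucleoside diphosphate kinases and 7 for mitochondrial ADP/ATP exchange, with medians of 0.03, -0.03, 0.06 and -0.00073. Some alternatives differed. In the creatine synthesis list 1 gene rose with the replicate block. In the ADP/ATP exchange list 1 rise was counted with every probe set, and in the nucleoside diphosphate kinase list 1 with no intensity trend. The mitochondrial kinases Ak3 and Ak4 measured 0.12 (95% confidence interval -0.01 to 0.24) and -0.08 (-0.49 to 0.32). Slc25a4, the ADP/ATP carrier of muscle, measured -0.06 (-0.16 to 0.03).

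**Figure D4:**
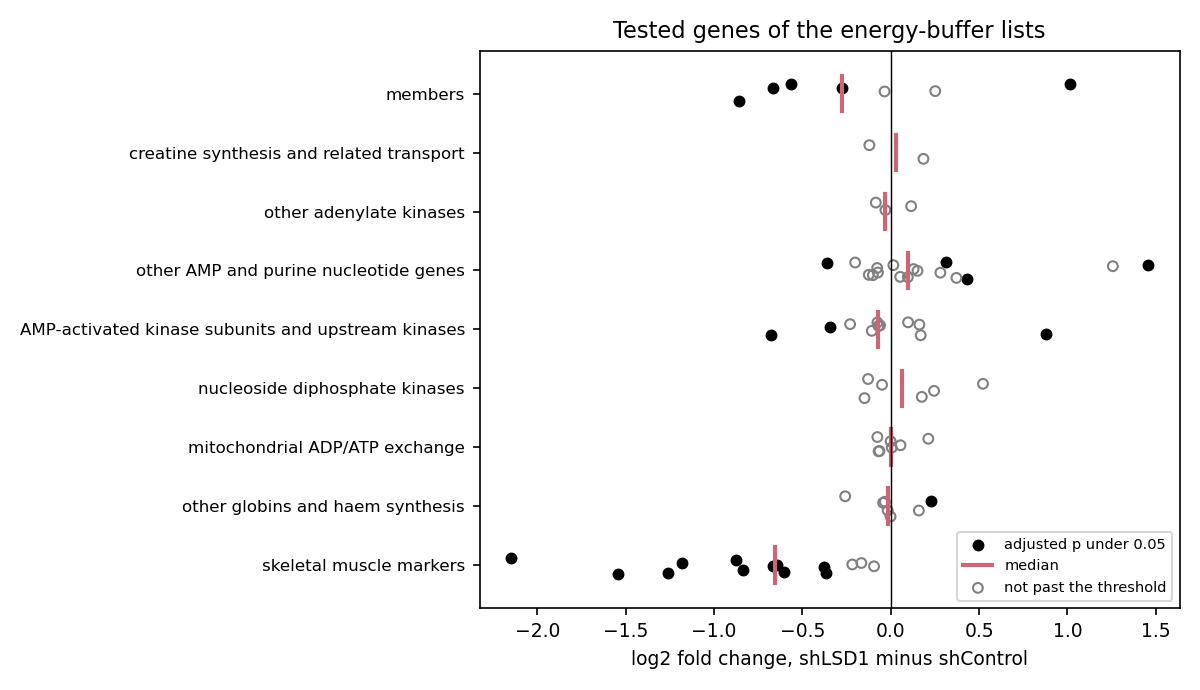
Log2 fold change (shLSD1 minus shControl) of each tested gene among the members, the 7 pathway lists and the skeletal muscle markers, with filled points past an adjusted p of 0.05, open points not past it, and red bars at the medians. The members include 4 falls and 1 rise, the pathway lists lie mostly near 0, and 11 of 14 muscle markers fell.

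Markers of the differentiated muscle cell moved in the same direction as Ckm, Ckb and Mb. All 14 skeletal muscle markers were above the filter, 11 fell and 0 rose, with a median of -0.65, and with no intensity trend 7 fell. Their summed signal was 152533 to 152732 in the control arrays and 102700.4 to 114843 in the knockdown arrays. Myh7, the slow myosin gene, fell by 1.55 and Tnnt3, a fast troponin gene, by 0.83. In these bulk samples, fewer differentiated cells and less RNA per cell cannot be told apart, and the part of differentiation in the falls of the members was not tested.

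Some markers of other cell types were bright, such as Acta2 of the smooth muscle list with 35608 and 34377 in the controls. In most of these lists, though, the larger part of the genes was below the filter. The fibroblast list was the exception, and myoblasts are known to make matrix proteins too. Here 7 of 8 measured genes were tested, 6 fell and 0 rose, and the summed signal was 68219 to 68624 in the controls and 51510 to 52839 in the knockdown. The 6 became 1 when either control array was dropped or with no intensity trend, and 3 with no filter. Postn fell by 1.22 and Col1a2 by 0.39, Col1a2 losing its call without shControl replicate 1 (limma adjusted p = 0.0545), without shControl replicate 2 (0.0522) and with no trend (0.0661). Lum, another of the 6, had knockdown signals under the filter. Pdgfra, the tested gene that did not fall, measured 0.37 (SE 0.19, limma adjusted p = 0.222), from 248 and 287 in the controls to 412 and 290. For smooth muscle, which also uses B-type creatine kinase, 3 of 7 genes were tested and 1 fell, with summed signals of 41518 to 42920 against 32988 to 37661. That count was 0 when either control array was dropped, with no filter and with no trend, 2 without shLSD1 replicate 1 and with the replicate block, and 3 without shLSD1 replicate 2. Acta2, also expressed in differentiating myoblasts, fell by 0.20, and Tagln measured -0.79 (limma adjusted p = 0.0699). Myh11, Myocd, Cnn1 and Lmod1 were below the filter by their mean log2 signal. Of these, Cnn1 went the other way, with 13.7 and 12.8 in the controls and 80.6 and 167 in the knockdown. Both knockdown signals of Cnn1 were above the filter value. With no filter, 1 gene of the smooth muscle list rose.

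For neurons and glia, where Ckb is also high, 4 of 11 measured genes were tested, 2 rose and 1 fell. Their summed signal was 2526 to 2599 in the controls and 3974 to 3992 in the knockdown. That sum rose mostly through Map2, with 841 and 887 in the controls and 2184 and 2159 in the knockdown. The rises became 1 when either control array was dropped or with no trend, and the fall became 0 without shControl replicate 1, with the stricter filter, with no trend and with averaged probe sets. Map2, a microtubule protein gene, rose by 1.33 and Tubb3 by 0.36 (limma adjusted p = 0.0123), while Aldoc measured 0.63 (limma adjusted p = 0.0557). The glutamate transporter gene Slc1a3 fell by 2.18, to 111 and 49.1 in the knockdown, of which the second was under the filter value. Gfap, Mbp, Rbfox3, S100b, Snap25, Syp and Syt1 were below the filter. For epithelium, 3 of 8 were tested and 2 rose, from summed signals of 287 to 304 to 510 to 576. These 2, Ocln at 2.11 and Cdh1 at 1.38, had control signals under the filter, and Cdh1 did not pass without shControl replicate 2 (limma adjusted p = 0.0619). Of the adipocyte list 1 of 6 measured genes was tested (Pparg, -0.39, limma adjusted p = 0.402), with summed signals of 165 to 191 against 158 to 178, and of the endothelial and blood cell list 0 of 9, with 238 to 281 against 228.0 to 357. The part of any of these cell types in the results for the members was not tested.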

How the data were processed

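Total RNA (250 ng) was labelled with biotin for 3' expression arrays, per the labels' protocols. The authors deposited a linear signal intensity for every probe set, made with MAS5 and Affymetrix Expression Console per the submitters' processing notes (versions not given in the sources used here). Every array had a mean of 500.003 after trimming 2% at each end. Scaling to a common mean leaves differences in the shape of the distributions in place.

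Signals under 1 were set to 1 and log2 was taken. Genes were named from the platform annotation: 34945 probe sets had 1 symbol, 932 had several and 9160 had none. The 64 control probe sets were left out. Each gene was represented by 1 probe set, the brightest not of the cross-hybridising x type where there was a choice. Genes above the median probe set signal of 65.4 were tested (10879 of 18193).

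Groups were compared with limma 3.58.1 (intensity trend, two-sided, Benjamini-Hochberg over all genes, threshold 0.05) in R 4.3.3, with fold changes as shLSD1 minus shControl. The script was tested on simulated data. Other probe sets were tested in a fit with every probe set as its own feature. Figures used matplotlib 3.10.9. The alternatives changed the samples (a replicate block, or leaving out each array), the scale (quantile or median normalization, log2(signal + 32)), the filter (none, or the 75th percentile), the variance model (no trend, robust), the use of probe sets (their mean, or each on its own) and the threshold. Genes named are Kdm1a, the 10 members, up to 4 called genes of each pathway list, a fixed set of direct partners and up to 2 genes of each marker list. Further marker genes are named where they are part of a count, limit it or were below the filter. The members and lists were chosen with earlier results of these data known. Promoters were matched by symbol.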

Additional observations from a re-analysis of the deposited data

How the results depend on the processing

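Ckb and Ampd3 kept their direction and side of the threshold in all 14 alternatives. With the intensity trend left out, 2 members fell in place of 4, Ckm and Adssl1 being lost, and with the mean of probe sets 2 fell, Mb and Adssl1 being lost. Without any 1 array, where the group left with 1 array is assumed to vary like the other, 3 or 4 members fell and 1 rose. Both losses of 1 fall come from leaving out a shControl array, which ended the call of Adssl1.

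The replicate numbers were not treated as pairs, and the fit with the replicate number as a block was an alternative. The deviations of same-numbered arrays correlated at 0.0029 over genes. With the replicate block 2 members rose in place of 1, the second being Slc6a8 (limma adjusted p = 0.0328, range over its alternatives 0.0328 to 0.361), and 8 pathway genes rose in place of 5. At a threshold of 0.10, 2 members and 10 pathway genes rose, and at 0.01, 3 pathway genes rose.

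Pathway genes that rose numbered 3 with the stricter filter, 2 with no intensity trend and 2 with averaged probe sets, and without any 1 array 1 to 5. Those that fell numbered 1 without the intensity trend, and 1 to 4 without any 1 array.

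Over all genes, 952 rose and 771 fell. Without any 1 array these became 349 to 1151 and 228 to 1041, the low counts being those without a shControl array (352 and 228 without replicate 1, 349 and 233 without replicate 2). With no intensity trend they were 375 and 262, with the mean of probe sets 494 and 407, at a threshold of 0.01 415 and 348, and at 0.10 1437 and 1159. With median centring 845 rose and 900 fell, so the falls outnumbered the rises in that setting.

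The ratio of Ckm to Ckmt2, whose difference was 1.67, ranged from -0.51 to 3.84 without any 1 array and was -0.31 with log2(signal + 32). The ratio of Ampd1 to Ampd3, whose difference was -0.18, ranged from -0.87 to 0.52. Both hold a gene below the filter. The cause of these differences between settings was not tested. Signal over background limits Ckmt1, Ckmt2 and Ampd1, for which no change could be measured.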
